A study of Mus musculus with 6 samples.

Results

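The nuclear genes that encode subunits of the mitochondrial respiratory chain and of ATP synthase were examined in mouse fetal liver myeloid cells cultured in GM-CSF (1 ng/ml), a growth factor of granulocytes and macrophages. Members were chosen by gene symbol alone, from the families Nduf for complex I, Sdh for complex II, Uqcr for complex III, Cox4 to Cox8 for complex IV and Atp5 for complex V, without pseudogenes. This gave 79 of the 22180 genes measured, with 34 in complex I, 4 in complex II, 7 in complex III, 17 in complex IV and 17 in complex V. Of the 6 samples, 3 were induced, which means that they received 1000 ng/ml doxycycline for 72 h, and 3 were uninduced. The labels name the induced state as expression of PU.1. This is a transcription factor of the ETS family, encoded by Spi1 and needed for myeloid development. They do not describe the strain, the genotype or the construct that answers to doxycycline, and no sample received the drug without the construct. Doxycycline is a tetracycline antibiotic, a class known to act on mitochondrial ribosomes too, and an effect of the drug itself and one of PU.1 cannot be told apart here. No label says that samples A, B and C of a group came from separate cultures, so the p-values rest on the spread among the arrays, which could be technical only.

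The respiratory chain passes electrons from NADH (complex I) and succinate (complex II) through coenzyme Q, complex III and cytochrome c to complex IV, which reduces oxygen. Complexes I, III and IV pump protons across the inner membrane, and complex V, the ATP synthase, uses the returning protons to make ATP. Most subunits are encoded in the nucleus, while a small set, made of hydrophobic core subunits of complexes I, III, IV and V, is encoded in mitochondrial DNA, so that each of these complexes needs both genomes. Nuclear factors known to bind promoters of such genes include NRF-1, the ETS factor GABP and YY1. Complex IV also has isoforms that are restricted to tissues such as heart, skeletal muscle, lung or testis.

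Each value is a log2 signal of 1 transcript cluster, the probe group that stands for a gene on the Affymetrix Mouse Gene 2.0 ST array. Differences are induced minus uninduced on the log2 scale, with the SE from limma, and a gene is called where its Benjamini-Hochberg adjusted p over all 22180 genes was under 0.05. As a mark for background, the 95th percentile of 1394 olfactory and vomeronasal receptor genes was used, which lay at 7.39, 7.99 and 7.85 in induced A to C and at 7.37, 7.05 and 7.34 in uninduced A to C. Of the 79 genes, 52 were above it on all 6 arrays, 19 on some and 8 on none. Array induced A was closer to uninduced A and C than to the other induced arrays, with Pearson's r over all genes of 0.977 with induced B and 0.984 with induced C, against 0.991 with uninduced A, 0.981 with uninduced B and 0.989 with uninduced C. Spi1 itself was at 9.13, 9.04 and 9.05 in induced A to C and at 8.80, 8.65 and 8.84 in uninduced A to C, a difference of 0.31 (SE 0.12) that did not pass the test (limma adjusted p = 0.152). Of 12 myeloid markers, 10 were above background on all arrays. Limma called 4 of the 12 higher, namely Lyz2 (1.43), Cd68 (1.36), Ptprc (1.24) and Mpo (1.11), and 0 lower, where 0.374% of all genes were called higher. Ptprc was below background on all arrays, and Mpo was above it on the induced arrays only. Another 4 of the 12 had a difference below 0. Among hepatocyte, erythroid, megakaryocyte, mast cell, lymphoid, endothelial and stromal, and muscle markers, those above background on all arrays were Kit and Pecam1, and none of these lists had a called gene.

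The promoters of 5 genes that recur below are shown to give the sequence next to the values. Cox7a1 is the gene that passed the test, Cox6a1 and Uqcrh had induced values that lay wholly below the uninduced ones, Ndufs4 holds the PU.1 letters, and Sdhd is the complex II gene with the largest difference. Each run holds the 250 bases before the start of the gene in RefSeq, build GRCm38.p6, read 5′ to 3′ in the direction of the gene. Capitals mark matches to CGCATGCG (NRF-1), CCGGAAG (the ETS core of GABP sites) or GAGGAAGT (PU.1) on either strand.
Cox7a1: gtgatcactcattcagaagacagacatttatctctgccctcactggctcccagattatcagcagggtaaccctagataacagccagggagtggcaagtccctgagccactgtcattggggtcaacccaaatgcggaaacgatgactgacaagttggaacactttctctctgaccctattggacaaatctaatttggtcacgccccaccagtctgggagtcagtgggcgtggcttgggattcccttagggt
Cox6a1: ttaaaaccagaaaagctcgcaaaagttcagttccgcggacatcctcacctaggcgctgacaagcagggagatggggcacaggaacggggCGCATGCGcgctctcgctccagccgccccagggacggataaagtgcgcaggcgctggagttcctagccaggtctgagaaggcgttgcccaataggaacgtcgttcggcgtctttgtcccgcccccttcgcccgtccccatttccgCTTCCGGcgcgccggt
Uqcrh: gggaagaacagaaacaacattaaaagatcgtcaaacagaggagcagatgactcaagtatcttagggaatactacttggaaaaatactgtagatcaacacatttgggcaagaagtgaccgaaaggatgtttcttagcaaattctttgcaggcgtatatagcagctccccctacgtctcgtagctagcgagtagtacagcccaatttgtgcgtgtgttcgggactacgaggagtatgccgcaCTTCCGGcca
Ndufs4: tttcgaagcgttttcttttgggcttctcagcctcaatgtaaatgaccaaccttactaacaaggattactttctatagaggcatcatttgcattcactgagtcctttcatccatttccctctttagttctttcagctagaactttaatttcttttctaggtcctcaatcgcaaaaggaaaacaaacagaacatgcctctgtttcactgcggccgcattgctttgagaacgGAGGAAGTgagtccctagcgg
Sdhd: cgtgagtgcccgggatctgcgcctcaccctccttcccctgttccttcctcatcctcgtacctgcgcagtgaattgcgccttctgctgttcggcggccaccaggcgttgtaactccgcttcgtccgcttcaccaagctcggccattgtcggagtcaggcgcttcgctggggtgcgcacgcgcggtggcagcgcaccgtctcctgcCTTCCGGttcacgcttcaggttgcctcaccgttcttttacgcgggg
These lie at chr7:30183921-30184170 (plus strand) for Cox7a1, chr5:115348959-115349208 (minus strand) for Cox6a1, chr4:116075071-116075320 (minus strand) for Uqcrh, chr13:114388095-114388344 (minus strand) for Ndufs4 and chr9:50603850-50604099 (minus strand) for Sdhd. The Cox6a1 run holds the NRF-1 letters at bases 90 to 97 and the ETS letters on the other strand at bases 235 to 241. The Uqcrh and Sdhd runs hold the ETS letters on the other strand, at bases 241 to 247 and 205 to 211. The Ndufs4 run holds the PU.1 letters at bases 230 to 237, and the Cox7a1 run holds none of the letters searched.

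Induced cells were set against uninduced ones to ask which subunit genes moved with PU.1 induction, and in which of the 5 complexes. Most subunit genes had slightly lower values in the induced cells, and this is what most strongly expressed genes on these arrays did. Of the 79 genes, 67 had a difference below 0, and the median was -0.29. A single gene, Cox7a1, passed the test and was lower, and 0 were called higher by limma. Over all genes, 1.05% were called lower and 0.374% higher, so 1 of 79 is close to the share among all genes. After cyclic loess, a normalization that removes differences between arrays that follow the level, Cox7a1 was again the 1 member called, where 0.532% of all genes were called lower. At an unadjusted limma p under 0.05, 24 subunit genes were lower and 1 was higher, where all genes gave 16.9% lower and 11.4% higher. In the brightest quartile of all genes by mean level 43.7% were lower at that p. The 95% interval of the difference, not adjusted for the number of genes, lay inside -1 to 1 for 70 of the 79 genes, reached below -1 for 8 and above 1 for 1, so for most members a doubling or halving of the signal lay outside it.

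The difference depended on the level of the gene. Of the subunit genes, 54 were in the brightest quartile of all genes by mean level, where 91.0% of 5545 genes had a difference below 0 and the median was -0.34. The 54 subunit genes of that quartile had a median of -0.31, and 52 of them were below 0. The medians of the other quartiles of all genes, dimmest first, were 0.16, 0.19 and -0.07. Cyclic loess brought the median of the 79 genes to -0.02, with 44 below 0 where 49.5% of all genes were. The median of the subunit genes in the brightest quartile was thus close to that of the whole quartile, and whether the pattern with level comes from the cells or from the arrays was not tested. Because RNA was taken from bulk cultures, fewer cells of a type and less RNA per cell cannot be told apart.

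**Figure D1:**
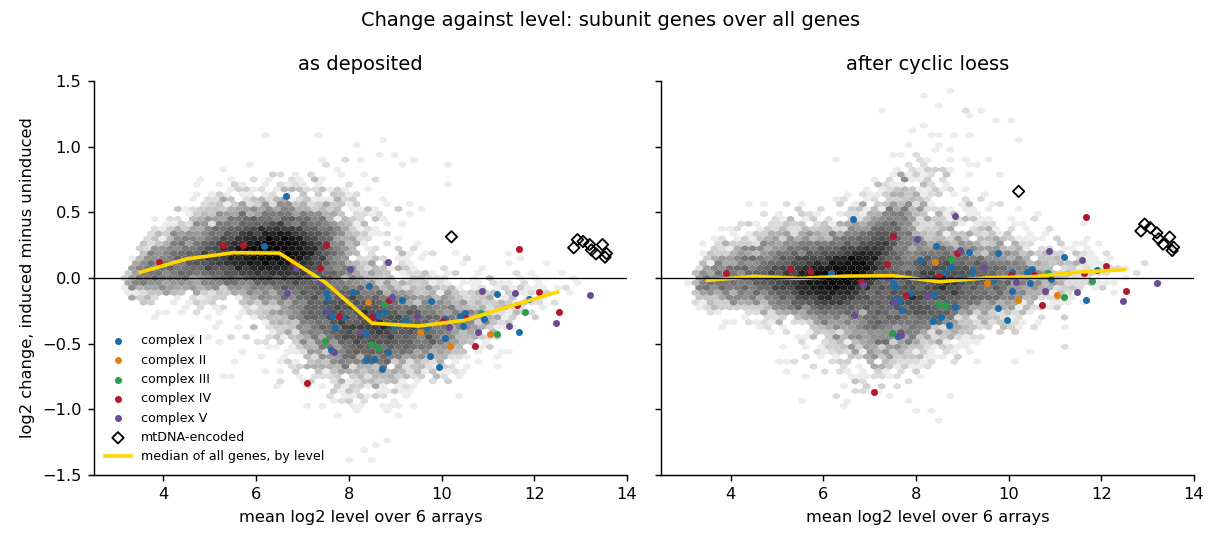
The log2 difference, induced minus uninduced (vertical), is plotted against the mean log2 level over the 6 arrays (horizontal), for all 22180 genes in grey (darker where more genes lie, log scale) and for the subunit genes in the colour of their complex, as deposited (left) and after cyclic loess (right). As deposited, the subunit genes follow the median of all genes at their level (yellow line), with a median of -0.29. After cyclic loess they scatter about 0 with a median of -0.02. The mitochondrially encoded genes (open diamonds) lie above 0 in both panels, most of them at levels beyond the end of the line.

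The arrays of 1 group also differed from each other. Relative to the uninduced mean of each gene, the median of the 79 genes was -0.05, -0.41 and -0.37 in induced A to C, against -0.05, 0.12 and -0.06 in uninduced A to C. Induced A thus sat with uninduced A and C, and it had the highest of the 3 induced values in 61 of the 79 genes. Uninduced B had the highest of the 3 uninduced values in 58 genes. In induced B and C, 61 and 58 genes lay below all 3 uninduced values, and in induced A 25 did. All 3 induced values lay below all 3 uninduced values in 21 genes, where 15.4% of all genes and 36.3% of the brightest quartile did, and above them in 6 genes, where 16.0% of all genes did. After cyclic loess the induced values lay wholly below in 9 genes, where 11.3% of all genes did, and wholly above in 7, where 10.6% did. Statements below that groups did not overlap are on the deposited scale. Without induced A, limma called 32 subunit genes lower and 1 higher, where 15.9% of all genes were called lower and 9.01% higher. In the brightest quartile of all genes, 2488 of 5545 were then called lower and 143 higher. Of the 54 subunit genes in that quartile, 27 were called lower and 0 higher. With array weights, which give the less variable arrays more say, 48 subunit genes were called lower and 2 higher. Over all genes 25.6% were called lower and 26.3% higher with these weights. The share in the brightest quartile, which holds 54 of the 79 genes, was not computed with them. The count of 48 is thus not set against genes of a like level.

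**Figure D2:**
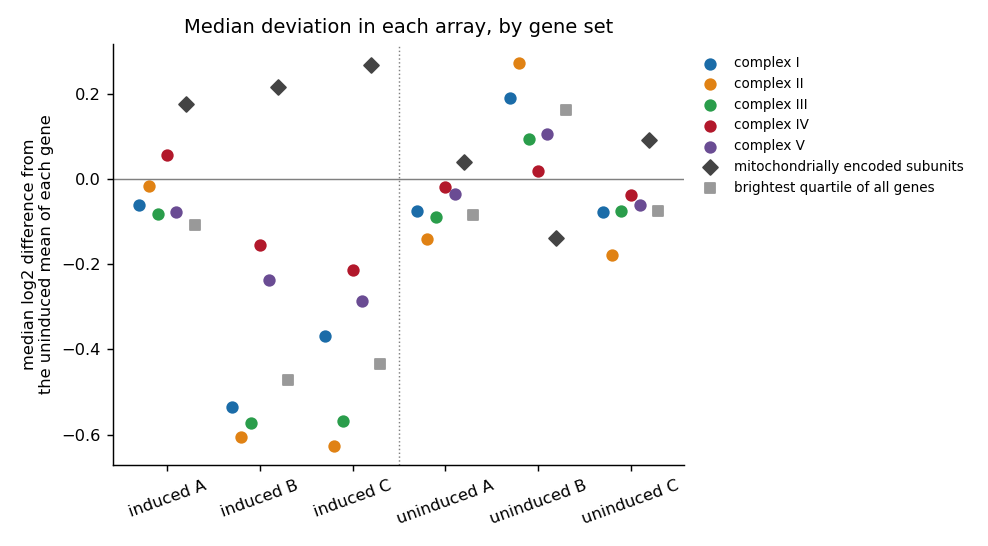
Each point is the median, over the genes of a set, of the log2 difference from the uninduced mean of each gene (vertical) in 1 array (horizontal), for the 5 complexes, the mitochondrially encoded subunits and the brightest quartile of all genes. In induced A the nuclear sets lie near 0, in induced B and C they lie lower, down to -0.63 for complex II in induced C, while the mitochondrially encoded subunits lie between 0.18 and 0.27 in the 3 induced arrays.

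The median difference was -0.30 in complex I, -0.42 in complex II, -0.43 in complex III, -0.16 in complex IV and -0.14 in complex V. After cyclic loess these medians were -0.02, -0.09, -0.15, 0.04 and -0.04 in the same order of complexes. With 4 to 34 genes in a complex and the same 6 arrays behind all of them, differences between complexes were not tested, and no order among them is read from these medians. The share of genes below 0 was 32 of 34 in complex I, 4 of 4 in complex II, 7 of 7 in complex III, 10 of 17 in complex IV and 14 of 17 in complex V. In complex IV, the 7 genes at or above 0 were Cox7b and 6 of the tissue-restricted isoforms, and without those isoforms the median over the 10 other genes was -0.27. Ndufa4, today counted with complex IV, was kept under complex I by its symbol. Counting it under complex IV put the medians at -0.31 for complex I and -0.17 for complex IV.

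**Figure D3:**
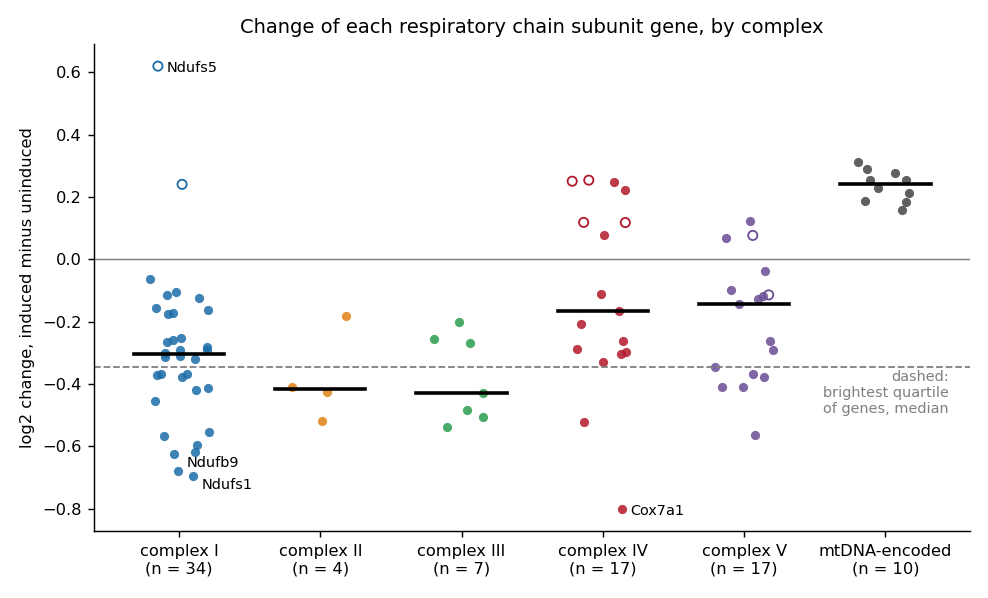
Each point is the log2 difference, induced minus uninduced, of 1 gene (vertical), by complex and for the mitochondrially encoded subunits (horizontal), black bars are medians, and open circles are genes above background on no array. Most nuclear genes lie between 0 and the region below the dashed line, which is the median of the brightest quartile of all genes at -0.34, and all 10 mitochondrially encoded genes lie above 0.

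Complex IV held the gene that passed the test. Cox7a1 (chr7:30184171-30186030), the heart and skeletal muscle isoform of subunit 7a, had log2 values of 6.69, 6.88 and 6.51 in induced A to C and of 7.39, 7.53 and 7.56 in uninduced A to C. It differed by -0.80 (SE 0.14, limma adjusted p = 0.0207), with all 3 induced values below all 3 uninduced ones, induced A included. The level was low: it was below the background mark on all 3 induced arrays. It was above the mark on all 3 uninduced arrays, though only just in uninduced A. The induced level is therefore only a bound, and no fold is given. After cyclic loess it was -0.87 (adjusted p = 0.0163). The call was lost when induced C or any 1 of the uninduced arrays was left out, with differences of -0.71 without induced C, -0.85 without uninduced A, -0.78 without uninduced B and -0.77 without uninduced C, and adjusted p-values between 0.0668 and 0.121. Of 5 muscle markers, Ckm, Myh6 and Myl1 were below background on all arrays, and Acta1 and Tnnt3 were above it on 1 induced and 3 uninduced arrays. All 5 had a difference above 0, with 0.04 for Acta1 and 0.09 for Tnnt3. Limma called 0 of them, nor had any an unadjusted p under 0.05. The part of muscle-type RNA in the Cox7a1 result was not tested.

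The paralogue that most tissues use, Cox7a2, was at 10.91, 10.23 and 10.24 in induced A to C and at 11.06, 10.98 and 10.90 in uninduced A to C. Its groups met at induced A, and the difference of -0.52 (SE 0.18) did not pass the test (limma adjusted p = 0.132). Of the other tissue-restricted isoforms, Cox8b, Cox8c, Cox6b2, Cox7b2 and Ndufa4l2, which its symbol put under complex I here, were below background on all arrays. Their differences between 0.12 and 0.25 lie in the range of the dim quartiles of all genes. Cox6a2, the muscle isoform of subunit 6a, was at 7.51, 7.81 and 7.55 in induced A to C and at 7.63, 7.19 and 7.29 in uninduced A to C, with overlapping groups and a difference of 0.25 (adjusted p = 0.278). Cox4i2, the isoform of subunit 4 known from lung and from low oxygen, was at 7.36, 7.46 and 7.44 in induced A to C and at 7.34, 7.31 and 7.37 in uninduced A to C (difference 0.08). Both stayed near the background mark.

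Among the ubiquitous nuclear subunits of complex IV, all of which surround the catalytic core that mitochondrial DNA encodes, Cox7b had the highest difference. Cox7b was at 11.83, 11.65 and 11.88 in induced A to C and at 11.60, 11.41 and 11.68 in uninduced A to C, a difference of 0.22 (SE 0.13, limma adjusted p = 0.266). A second transcript cluster with the same symbol, at a mean of 6.24, had a difference of -0.64, so the 2 clusters of Cox7b ran opposite ways. Cox6a1 was at 12.45, 12.37 and 12.37 in induced A to C and at 12.60, 12.82 and 12.55 in uninduced A to C. Its groups did not overlap, and the difference of -0.26 (SE 0.13) did not pass the test (adjusted p = 0.201). Cox4i1, Cox5a, Cox5b, Cox6b1, Cox7a2l, Cox7c and Cox8a had differences between -0.33 and -0.11, each with overlapping groups.

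Complex I consists of core subunits, which carry out its chemistry, and of a large set of supernumerary ones. Here 6 nuclear core genes were measured, with a median difference of -0.37, and 28 supernumerary genes by symbol, Ndufa4 and Ndufa4l2 among them, with a median of -0.29. After cyclic loess these were -0.07 and -0.01. Ndufs1, the largest core subunit, which carries iron-sulphur clusters, had log2 values of 8.96, 8.16 and 7.98 in induced A to C and of 9.08, 9.41 and 8.71 in uninduced A to C. Induced A lay among the uninduced values, and the difference of -0.70 (SE 0.25) did not pass the test (limma adjusted p = 0.137). The flavoprotein genes Ndufv1 and Ndufv2, at the site where NADH is oxidised, had differences of -0.46 (adjusted p = 0.138) and -0.37 (adjusted p = 0.213). The core genes of the arm that reaches the coenzyme Q site, Ndufs3, Ndufs7 and Ndufs8, had differences of -0.38, -0.16 and -0.31. Ndufs3 was above background on 1 induced array and on all 3 uninduced ones.

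Among supernumerary genes, Ndufb9 came nearest to the threshold. It was at 9.99, 9.43 and 9.43 in induced A to C and at 10.21, 10.47 and 10.21 in uninduced A to C, with groups that did not overlap and a difference of -0.68 (SE 0.17, limma adjusted p = 0.0862). After cyclic loess the difference was -0.32 (adjusted p = 0.167). Ndufa6 was at 8.62, 8.17 and 7.89 in induced A to C and at 8.65, 9.12 and 8.76 in uninduced A to C (difference -0.62, adjusted p = 0.12). In both genes induced A was the highest of the induced values. Ndufs4, a subunit whose loss in mice gives a Leigh-like disease, was at 10.84, 10.66 and 10.79 in induced A to C and at 11.00, 11.13 and 11.10 in uninduced A to C, with groups that did not overlap, and its difference of -0.31 (adjusted p = 0.152) was -0.01 after cyclic loess. The 2 genes with the smallest negative differences were Ndufa5 at -0.06 and Ndufb10 at -0.11. Both had overlapping groups, and after cyclic loess they were at 0.24 and 0.13.

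Ndufs5 was the one subunit gene with an unadjusted p under 0.05 and a higher value. It was at 6.69, 6.88 and 7.29 in induced A to C and at 6.22, 6.22 and 6.56 in uninduced A to C, a difference of 0.62 (SE 0.18, limma adjusted p = 0.102) with groups that did not overlap. All 6 values were below the background mark, so no level of Ndufs5 was measured above it, although the protein is a part of complex I in all tissues.

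**Figure D4:**
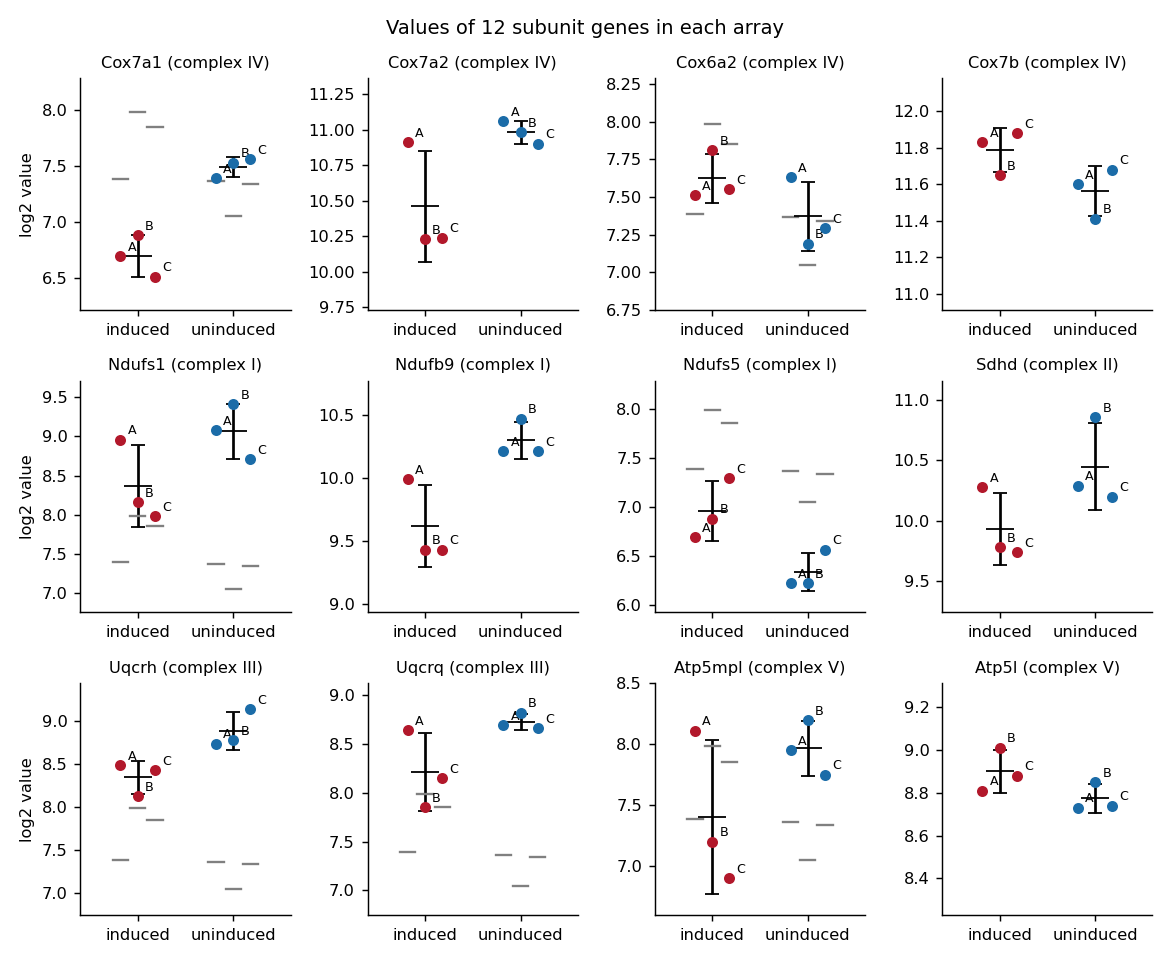
Log2 values of 12 subunit genes in each array, with the induced arrays A, B and C in red on the left and the uninduced ones in blue on the right of each panel, black bars for the mean and SD of 3 arrays, and grey ticks for the background mark of each array where it falls in the panel. Cox7a1, Ndufb9, Ndufs5, Uqcrh and Uqcrq show no overlap between groups, while in Ndufs1, Sdhd and Atp5mpl induced A lies among the uninduced values.

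Complex II, which is both an enzyme of the TCA cycle and an entry point to the chain, is wholly nuclear-encoded. Sdhd, a membrane anchor, was at 10.28, 9.78 and 9.74 in induced A to C and at 10.29, 10.86 and 10.20 in uninduced A to C. It differed by -0.52 (SE 0.20, limma adjusted p = 0.15). Sdha, the flavoprotein that oxidises succinate, was at 11.28, 10.58 and 10.62 in induced A to C and at 11.24, 11.46 and 11.05 in uninduced A to C. Its difference was -0.43 (SE 0.20, adjusted p = 0.182), and induced A was above 2 of the uninduced arrays. Sdhc, the other anchor, and Sdhb, the iron-sulphur subunit, had differences of -0.41 and -0.18. The groups overlapped in all 4 genes.

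In complex III, Uqcrh and Uqcrq had the largest differences. Uqcrh, the hinge protein beside cytochrome c1, was at 8.49, 8.13 and 8.43 in induced A to C and at 8.74, 8.78 and 9.14 in uninduced A to C, a difference of -0.54 (SE 0.16, limma adjusted p = 0.107) with groups that did not overlap. Uqcrq was at 8.64, 7.85 and 8.15 in induced A to C and at 8.69, 8.82 and 8.66 in uninduced A to C (difference -0.51, adjusted p = 0.138). Here too the groups did not overlap, but induced A lay just under the lowest uninduced value, and induced B was below the background mark. The 2 core protein genes Uqcrc1 and Uqcrc2 had differences of -0.27 and -0.43, and the Rieske iron-sulphur protein gene Uqcrfs1 had -0.48. Uqcrfs1 was above background on 1 induced array and on all 3 uninduced ones. Uqcrb and Uqcr11 had -0.26 and -0.20. All 7 were below 0 and none was called. Cyc1, the gene of cytochrome c1, is a complex III subunit too, but its symbol kept it out of the 7.

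In complex V 14 of 17 genes were below 0, and none was called. The 5 genes of the catalytic F1 part (Atp5a1, Atp5b, Atp5c1, Atp5d and Atp5e) had a median of -0.10, the 3 genes of the proton-driven c ring (Atp5g1, Atp5g2 and Atp5g3) -0.12, the 4 of the peripheral stalk (Atp5h, Atp5j, Atp5o and Atp5pb) -0.39, and the 5 small membrane subunits -0.14. After cyclic loess these medians were 0.00 for F1, 0.08 for the c ring, -0.12 for the stalk and -0.18 for the small membrane subunits. Atp5d, at -0.10 as deposited, had a second transcript cluster, at a mean of 9.10, with a difference of -0.54. Atp5j, a stalk subunit also called coupling factor 6, was at 8.28, 7.93 and 7.93 in induced A to C and at 8.34, 8.66 and 8.37 in uninduced A to C. The groups did not overlap, and the difference was -0.41 (SE 0.15, limma adjusted p = 0.139). Its induced B value was below the background mark. Atp5mpl was at 8.11, 7.20 and 6.90 in induced A to C and at 7.95, 8.20 and 7.75 in uninduced A to C. It was above background on 1 induced and all 3 uninduced arrays, its induced A value lay among the uninduced ones, and its difference of -0.56 (SE 0.27, adjusted p = 0.187) rests on induced B and C values that give no level.

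The catalytic β subunit gene Atp5b, among the brightest members, was at 13.24, 13.11 and 13.06 in induced A to C and at 13.28, 13.31 and 13.20 in uninduced A to C (difference -0.13). Atp5l was at 8.81, 9.01 and 8.88 in induced A to C and at 8.73, 8.85 and 8.74 in uninduced A to C, and Atp5e at 7.97, 8.13 and 8.07 in induced A to C and at 7.96, 8.05 and 7.97 in uninduced A to C. Their differences of 0.12 and 0.07 were the highest of the complex among genes above background, and both turned below 0 with median centring. A second transcript cluster of Atp5e, at a mean of 8.01 against 8.03 for the one used, had a difference of -0.19. Atp5g1 and Atp5j2 were below background on all arrays.

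**Figure D5:**
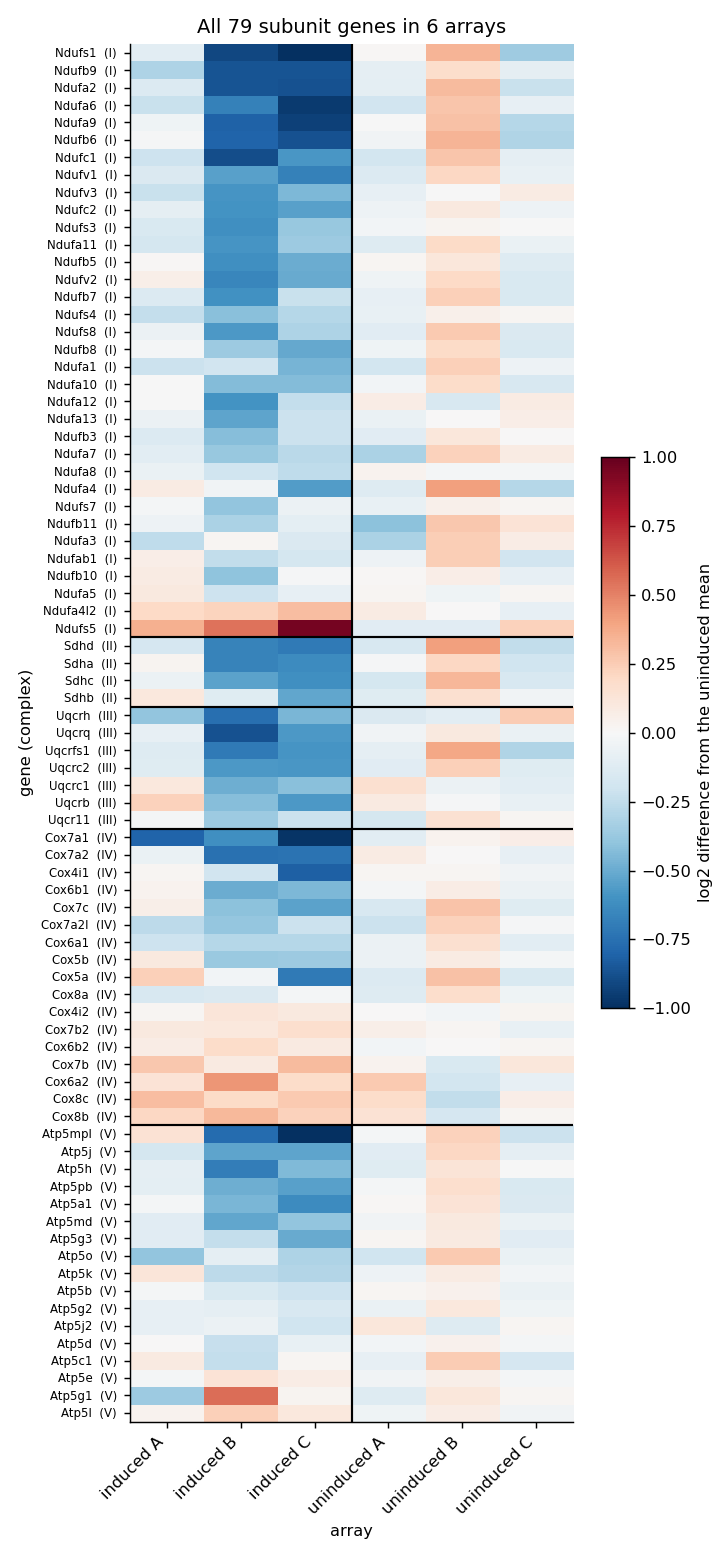
Each row is 1 of the 79 genes, ordered by complex and then by difference, each column is 1 array, and the colour is the log2 difference from the uninduced mean of the gene (blue lower, red higher, clipped at -1 and 1). Blue fills most of complexes I, II and III in induced B and C and is faint in induced A, where 50 genes were below the uninduced mean, against 66 in induced B and 66 in induced C, and uninduced B is mostly red.

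The measured subunits encoded in mitochondrial DNA all lay above 0, where 12 of the 79 nuclear ones did as deposited and 35 did after cyclic loess. Of 13 such genes, 10 were matched to a transcript cluster by symbol: ND1, ND2, ND3, ND4, ND4L, ND5, ND6, CYTB, COX1 and COX3. All 10 had a difference above 0, between 0.16 and 0.31 with a median of 0.24. In 9 of the 10, all but ND6, all 3 induced values lay above all 3 uninduced ones, where 16.0% of all genes did. After cyclic loess 5 of the 10 did, where 10.6% of all genes did. None was called by limma, and 1, ND4L, had an unadjusted p under 0.05. CYTB, the core of complex III, was at 13.59, 13.60 and 13.61 in induced A to C and at 13.40, 13.16 and 13.47 in uninduced A to C, a difference of 0.25 (SE 0.13, adjusted p = 0.215). COX1, the catalytic core of complex IV, was at 13.58, 13.64 and 13.74 in induced A to C and at 13.45, 13.39 and 13.56 in uninduced A to C (difference 0.19, adjusted p = 0.305). For this list induced A ran with the other induced arrays on the deposited scale, with medians of 0.18, 0.22 and 0.27 in induced A to C relative to the uninduced mean. After cyclic loess these were 0.15, 0.40 and 0.37, so induced A lay lower than induced B and C there.

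Their sign did not turn with the scaling: the median of the 10 genes was 0.33 after cyclic loess, 0.22 after quantile normalization, 0.10 after median centring and 0.16 without uninduced B, and all 10 stayed above 0 in each. The median of all genes was 0.06 as deposited and -0.08 after median centring. Every difference read against 0 shifts by that same step, while differences read relative to the median of all genes do not. These genes lie at the top of the array's range, where few others do. Of the 92 other genes with a mean level above 12, a limit chosen after seeing the data, 68 were below 0 with a median of -0.10, and after cyclic loess 33 were below 0 with a median of 0.06. The 4 subunit genes above that level (Cox6a1, Cox8a, Atp5b and Atp5md) had a median of -0.19 as deposited and of -0.07 after cyclic loess. The transcripts of mitochondrial DNA come from 1 genome and are cut from long precursors, so the 10 genes are not independent of each other. The difference between the 2 groups of genes was not tested.

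Genes that serve the chain but lie outside the chosen symbol families mostly had differences below 0 too. Differences between these lists and the 79 subunit genes were not tested. The 13 complex I assembly factors had a median difference of -0.30, the 4 of complex II -0.43, the 6 of complex III -0.31, the 16 measured of complex IV -0.24, and the 4 genes of complex V assembly and inhibition -0.43. After cyclic loess these were -0.33, -0.36, -0.18, -0.03 and -0.14 in the same order. None was called by limma, and those lower at an unadjusted p under 0.05 were 3, 2, 2, 5 and 3 genes, with 0 higher. Over all genes 16.9% were lower at that p and over the brightest quartile 43.7%, and of the 5 lists 5, 1, 2, 10 and 4 genes were in that quartile. Ndufaf1, a chaperone of complex I assembly, was at 8.73, 7.86 and 7.82 in induced A to C and at 8.70, 9.52 and 8.61 in uninduced A to C, with overlapping groups and a difference of -0.81 (limma adjusted p = 0.13). It was above background on 1 induced and all 3 uninduced arrays, so its induced B and C values give no level. Ndufaf2, Ndufaf5, Sdhaf3 and Lyrm7 were above background on no array.

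The 12 measured genes of cytochromes c and c1 and of coenzyme Q synthesis had a median of -0.30 (-0.09 after cyclic loess). Of these, 0 were called and 4 were lower at an unadjusted limma p under 0.05, and 7 of the 12 were in the brightest quartile. Cyc1, which encodes the complex III subunit cytochrome c1, was left out of the 79 genes by its symbol and had a difference of -0.31. Cycs, which encodes cytochrome c, was at 11.82, 11.34 and 11.70 in induced A to C and at 11.53, 11.55 and 11.55 in uninduced A to C, a difference of 0.08 with overlapping groups. Among 14 regulators of respiratory chain genes, 12 were below 0 with a median of -0.32 (-0.10 after cyclic loess), 0 were called and 5 were lower at an unadjusted p under 0.05, where 16.9% of all genes and 43.7% of the brightest quartile were, which holds 7 of the 14. Tfb1m, a methyltransferase of mitochondrial ribosomal RNA, had -0.78 (adjusted p = 0.093), and Tfam, which packages and transcribes mitochondrial DNA, had -0.73 (adjusted p = 0.107) at values mostly below background. Nrf1 and Gabpa, the genes of the factors whose letters were searched in the promoters, had -0.16 and -0.55. Of the 3 induced arrays, Tfb1m and Nrf1 were above background on 2 and Gabpa on 1. Ppargc1a, which encodes the coactivator PGC-1α, was below background on all arrays.

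Of the genes that feed the chain, all 16 measured of pyruvate dehydrogenase and the TCA cycle were below 0, with a median of -0.47 (-0.15 after cyclic loess), 0 called and 11 lower at an unadjusted limma p under 0.05. Of these 16 genes 14 were in the brightest quartile, where 43.7% of genes were lower at that p, against 16.9% of all genes. Suclg2, a subunit of succinyl-CoA synthetase, came nearest to the threshold at -0.75 (adjusted p = 0.0887). The 6 carrier and porin genes had a median of -0.41 (-0.12 after cyclic loess), with Vdac1 at -0.71 (adjusted p = 0.0892), 0 called and 3 lower at an unadjusted p under 0.05, and all 6 were in the brightest quartile. Of the genes of all these lists outside the subunits, limma called 1, which was lower, where 1.05% of all genes were called lower. This was Pdk1, 1 of 4 measured kinases that switch pyruvate dehydrogenase off. It was at 7.96, 7.34 and 7.28 in induced A to C and at 8.78, 8.54 and 8.66 in uninduced A to C, a difference of -1.13 (SE 0.18, adjusted p = 0.0147) with groups that did not overlap. It was above background on 1 induced array and on all 3 uninduced ones, so no fold is given. The call was lost after cyclic loess (-0.89, adjusted p = 0.0503), with quantile normalization (-1.07, adjusted p = 0.0512) and with the mean of its clusters (-0.59, adjusted p = 0.0597). It was also lost without induced B, induced C or uninduced A, at -1.04, -1.01 and -1.07 (adjusted p-values between 0.066 and 0.0847), and in induced A set alone against the uninduced arrays (-0.70, adjusted p = 0.476). Pdk3 had -0.64 (adjusted p = 0.0979), and Pdk2 and Pdk4 were below background on all arrays.

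Genes with and without the letters searched in the promoters had median differences less than 0.1 apart. A window of 250 bases before and 50 after the start was given for 65 of the 79 genes, and 27025 genes with 32851 windows served for comparison. The NRF-1 letters stood in 9 of the 65 (13.8%), namely Ndufa8, Ndufa11, Uqcrc1, Uqcr11, Cox6a1, Atp5g2, Atp5j, Atp5k and Atp5l, against 2.07% of all genes and 1.87% of windows. The ETS letters stood in 17 (26.2%), against 9.93% of genes and 8.86% of windows. The YY1 letters ATGGCGGC stood in 5 (7.69%), all of complex I, against 2.6% of genes and 2.24% of windows, and the PU.1 letters in 3 (4.62%), Ndufa5, Ndufs4 and Atp5j, against 3.69% of genes and 3.2% of windows. In Ndufs4 the YY1 letters lie after the start, outside the run shown. None of the 4 strings contains another. The median difference was -0.31 in the 17 genes with the ETS letters and -0.26 in the 48 without, and -0.20 in the 9 with the NRF-1 letters and -0.29 in the 56 without. For the 3 genes with the PU.1 letters the median was -0.31, and it was -0.27 for the 62 without. A match is a string of letters and does not show binding.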

How the data were processed

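Samples were grouped by title, and the RNA of each of the 6 was hybridised to its own Affymetrix array. The log2 values, 1 for each of 41345 transcript clusters per array, were used as deposited by the authors. That the scale is log2 follows from the range, 2.86 to 14.03. Partek and the build mm10 are named per the submitters' processing notes, while their version, background correction, normalization and summary method were not given in the sources used here, which bears on any pattern with level. Platform annotation gave 1 symbol to 23521 clusters, several to 1814 and none to 16010, and the cluster with the highest mean stood for a gene (22180 genes). Another 10 clusters with a member symbol beside another were left out, and 9 members had several clusters, which ran opposite ways in 4. Array data carry no read depth, so the number of arrays limits the precision.

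The test was limma's moderated one (version 3.58.1, R 4.3.3, lmFit then eBayes), two-sided, without covariates and without a filter on dim genes, with Benjamini-Hochberg adjustment over all genes. No set of genes was tested as a set, and lists are described by counts and medians. The fitting code was tested on simulated data. Alternatives were the letter as replicate block, quantile normalization, median centring, cyclic loess, filters on dim genes, a variance trend, array weights, the mean of a gene's clusters, other thresholds and leaving out arrays. Values in every sample are given for called members, for the 2 members with the largest fall and rise per complex above background, for tissue-restricted isoforms above background, and for some members chosen after their values were seen. Members, lists, motifs and tests were chosen with earlier results of these data known. Promoter sequences are from RefSeq (GRCm38.p6). Python 3.11.15 with pandas 2.3.3 and numpy 2.4.6 was used for the summaries.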

Additional observations from a re-analysis of the deposited data

How the results depend on the processing

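The number of genes called lower among all genes was 232, and it was 425 with the letter as replicate block, 153 with median centring, 118 with cyclic loess, 5681 with array weights, 19 without induced B and C together, 55 at an adjusted p under 0.01 and 682 under 0.1, and between 47 and 3535 when 1 array was left out. The number called higher was 83, and it was 174 with the replicate block, 46 with median centring, 5825 with array weights, 41 without induced B and C, 43 under 0.01 and 245 under 0.1, and between 45 and 1998 when 1 array was left out. Of the subunit genes, 1 was called lower and 0 higher. Array weights gave 48 and 2, and leaving out 1 array gave 0 to 32 lower and 0 to 1 higher. None was called lower without induced B and C or at 0.01, and 2 were at 0.1. Of the settings that left out 1 array, the one without induced A gave the highest of these counts. Array weights were 0.309 for induced A, 3.46 for induced C, 0.369 for uninduced B and 4.6 for uninduced C, so that setting rested mostly on the C arrays.

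The median of the subunit genes was -0.02 with cyclic loess, -0.13 with quantile normalization and -0.0501 without induced B and C. Quantile normalization put complexes I, II and III at -0.14, -0.22 and -0.27. With cyclic loess and without induced B and C, complex I was at -0.0236 and -0.0611, complex II at -0.0862 and -0.0165, complex III at -0.15 and -0.0821, and complex IV at 0.0353 and 0.0566. Complex IV was also at -0.0357 with quantile normalization, -0.31 with median centring and -0.26 with a filter at the 50th percentile, and between -0.29 (without induced A) and -0.0251 (without uninduced B) when 1 array was left out. Complex V was at -0.28 with median centring, -0.26 with the filter at the 50th percentile and -0.26 with the mean of clusters. Leaving out 1 array put the median of all 79 genes between -0.37 and -0.20.

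Some genes changed sign. Ndufa5 was at 0.11 (quantile), 0.24 (cyclic loess) and 0.0990 (without induced B and C), and between -0.142 (without induced A) and 0.0103 (without induced B) when 1 array was left out. Ndufb10 was at 0.0078, 0.13 and 0.0843 under the same settings, at 0.0026 with array weights, and between -0.201 and 0.0375 when 1 array was left out. Without induced B and C, Sdha was at 0.0289, Atp5mpl at 0.14 and Atp5e at -0.0157. With median centring, Atp5l was at -0.0178, Atp5e at -0.0719 and Cox4i2 at -0.0628, and with the mean of clusters Cox7b was at -0.21 and Atp5e at -0.0594. The causes were not tested.

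The labels do not say that a shared letter marks a shared culture. Deviations of same-letter arrays from their group means correlated at -0.312 for A, -0.278 for B and 0.416 for C. The signs differ, and deviations from a mean of 3 arrays depend on each other within a group. These values therefore cannot decide whether a shared letter marks a shared culture. With 3 arrays per group, the 95% intervals of 54 subunit genes included 0, which does not show that those genes were unchanged. Values under the background mark give no level.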
